A study of Mus musculus with 2 samples.

Results

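The neuropeptide Y family of peptide hormones is described here in islet cells of 9-day-old mice through its 3 genes, Npy, Pyy and Ppy, chosen by symbol from the 46983 genes listed. Neuropeptide Y (NPY), peptide YY (PYY) and pancreatic polypeptide (PP) are short amidated peptides that share a hairpin fold and act on a common set of inhibitory G-protein-coupled receptors. NPY is best known as a neurotransmitter of brain and sympathetic nerves and is also made by immature beta cells. PYY comes from gut endocrine cells and from several islet cell types, and PP is the hormone of islet gamma cells. UMIs (unique molecular identifiers, each standing for 1 captured transcript) were counted for the 3 genes by library, by cell class and cell by cell.

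Islet cells were freed from the pancreas at postnatal day 9 in the presence of actinomycin D, which blocks transcription, sorted for the tdTomato reporter and run as 10x Chromium 3′ libraries. The control library carried Neurod1 Cre/+; Isl1f/+ and the Isl1CKO library Neurod1 Cre/+; Isl1f/f, where Isl1 is a transcription factor gene of the LIM-homeodomain family, active in endocrine cells. Both genotypes thus carried the Cre, which acts where Neurod1 is expressed, and at least 1 floxed Isl1 allele, so the control may have lost Isl1 on that allele and no Cre-free group was analysed here. Material from 6 animals of a genotype was pooled into 1 library, so no difference has a replicate check, no test between genotypes was possible, and every interval below is an exact 95% interval for counting error only. Where a count was 0, the share it allows is given separately as 3 counts of the total.

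The control library held 2504 cells with 72548173 UMIs and a median of 22638 UMIs per cell, and the Isl1CKO library 3020 cells with 78068592 UMIs and a median of 24906. Both libraries shared 4 cell barcodes. Levels are given as UMIs per 1000000 UMIs of the summed cells (CPM), and that of Isl1 itself was 253 CPM in the control library and 461 CPM in the Isl1CKO library. Because 3′ counts can come from outside the floxed part, these values do not check the genotype. Cells were grouped by the share of their own UMIs, with insulin-rich cells at 20% or more from Ins1 and Ins2, Gcg-rich cells at 10% or more, and Sst-rich cells at 5% or more. Isl1CKO cells were also grouped as Ttr-rich at 5% or more and Chgb-rich at 4% or more, and cells in no class are called remaining. The control library had 898 insulin-rich, 617 Gcg-rich, 539 Sst-rich and 465 remaining cells. The Isl1CKO library had 383 insulin-rich, 2 Gcg-rich, 6 Sst-rich, 1445 Ttr-rich, 494 Chgb-rich and 755 remaining cells. Some cells passed several thresholds, 15 in control and 65 in Isl1CKO. Cells with Xist and no Y-linked UMI were 18.1% of control and 32.7% of Isl1CKO cells, so the pools also differed in their mix of female and male cells.

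On GRCm38, Npy (ENSMUSG00000029819.6) lies on the forward strand at chr6:49822710-49829507. Pyy (ENSMUSG00000017311.15, chr11:102106676-102107832) and Ppy (ENSMUSG00000017316.13, chr11:102099930-102101319) lie on the reverse strand of chromosome 11, with 5356 bases between them. No other gene's exon overlapped any of the 3 genes on its strand in GENCODE M21. Each gene's transcript used here had 4 exons, and the coding sequence had 291 bases in Npy, 294 in Pyy and 300 in Ppy, stop codon left out. The most alike in-frame stretch of 108 bases was found in exons 2 to 3 of each gene, and it is shown because it is what makes the 3 genes 1 family. It spans chr6:49823691-49827501 in Npy (forward strand), chr11:102107044-102107259 in Pyy and chr11:102100271-102100615 in Ppy (both reverse strand), introns included. In the spliced coding sequences below, from the GENCODE M21 transcripts, capitals mark the 53 of 108 bases (49.1%) that are the same in all 3 genes.
Npy: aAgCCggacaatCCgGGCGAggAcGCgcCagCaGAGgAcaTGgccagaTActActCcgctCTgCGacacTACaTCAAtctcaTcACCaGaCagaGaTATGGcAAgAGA
Pyy: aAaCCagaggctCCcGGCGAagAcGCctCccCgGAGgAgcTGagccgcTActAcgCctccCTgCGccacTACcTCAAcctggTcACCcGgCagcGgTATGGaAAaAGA
Ppy: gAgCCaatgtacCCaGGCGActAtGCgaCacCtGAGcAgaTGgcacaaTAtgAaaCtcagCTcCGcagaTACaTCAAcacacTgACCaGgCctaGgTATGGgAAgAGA
Npy and Pyy shared 76 of the 108 bases (70.4%), Npy and Ppy 65 (60.2%), and Pyy and Ppy 62 (57.4%). By this measure the neighbours on chromosome 11 were the least alike pair, while their transcripts were the pair found together in cells.

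The 250 bases before each start site are shown as a description of the 3 genes. They are RefSeq sequences on GRCm38.p6, which matched all 3 genes by symbol, at chr6:49822460-49822709 (forward strand) for Npy, chr11:102107833-102108082 (reverse strand) for Pyy and chr11:102101320-102101569 (reverse strand) for Ppy. Capitals mark the letters ATAA on either strand.
Npy: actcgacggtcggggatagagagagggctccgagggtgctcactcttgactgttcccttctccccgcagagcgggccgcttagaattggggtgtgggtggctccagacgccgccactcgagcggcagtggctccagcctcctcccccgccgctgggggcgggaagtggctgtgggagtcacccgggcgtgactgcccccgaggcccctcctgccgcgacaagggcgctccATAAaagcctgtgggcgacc
Pyy: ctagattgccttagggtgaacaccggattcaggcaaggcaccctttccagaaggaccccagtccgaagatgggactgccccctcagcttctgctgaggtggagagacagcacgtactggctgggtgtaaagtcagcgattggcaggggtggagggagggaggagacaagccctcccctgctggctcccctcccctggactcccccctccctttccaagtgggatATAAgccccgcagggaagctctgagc
Ppy: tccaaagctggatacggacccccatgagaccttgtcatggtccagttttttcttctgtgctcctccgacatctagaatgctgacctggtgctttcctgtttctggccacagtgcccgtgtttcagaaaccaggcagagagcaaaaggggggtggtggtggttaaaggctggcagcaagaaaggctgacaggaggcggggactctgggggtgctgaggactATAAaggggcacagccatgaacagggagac
ATAA begins 20 bases before the start in Npy, 26 in Pyy and 30 in Ppy, and 60.9% of 32851 RefSeq start-site windows of this length hold it on either strand. The longer TATAA, which contains ATAA and is the core of a TATA box, is in the Pyy and Ppy windows and not in the Npy window, against 22.8% of all windows. The letters TAAT, a core read by many homeodomain proteins, are in none of the 3 windows and in 54.9% of all windows. The E-box letters CANNTG, which read the same on both strands, occur at 1 place, 36 bases before the Pyy start, and in 66.2% of all windows. GC content was 69.2% in the Npy, 61.2% in the Pyy and 55.2% in the Ppy window. RefSeq gives Pyy a further start site downstream, whose window is not shown. Any link between these letters and the cells that held each transcript was not tested.

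Over all cells the 3 genes were lower in the Isl1CKO than in the control library. Npy had 2433 UMIs in control cells (33.5 CPM, 32.2 to 34.9) and 0 UMIs in the 3020 Isl1CKO cells. Against a floor of 3 UMIs in the library it was 873-fold lower, and the exact upper limit of the log2 ratio was -9.47. Pyy stood at 34523 CPM (34480 to 34566) in control against 3338 CPM (3326 to 3351) in Isl1CKO cells, 10.3-fold lower. Ppy stood at 20989 CPM (20955 to 21022) against 311 CPM (307 to 315), 67.4-fold lower. Hormones take a large part of control UMIs, and the median gene had a log2 ratio of 0.58, Isl1CKO to control. Relative to that median, the log2 ratio was -3.95 for Pyy, -6.65 for Ppy and, at the floor, -10.35 for Npy. All 3 members passed a fixed size of at least 2-fold lower than the median gene, which 6.82% of the 14420 genes compared also did.

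Part of this difference goes with the cell classes, whose numbers differ between the pools, so that fewer cells of a class and less RNA per cell cannot be told apart in these sums. In the control library 36.4% of Pyy UMIs and 21.9% of Ppy UMIs came from Sst-rich cells, and 46.7% and 66.7% came from remaining cells. Sst itself stood at 15083 CPM over control cells and at 125 CPM over Isl1CKO cells. The direct comparisons below use insulin-rich cells, which the rule defines alike in both libraries, and control cells past the Ttr (113) or Chgb (33) threshold are used only for single values. The Isl1CKO signal also sat in fewer cells, since the 1% of cells highest in Pyy held 36.8% of its UMIs (30 cells), against 11.8% in control (25 cells), and the 1% highest in Ppy held 57.2% against 17.5%.

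**Figure D1:**
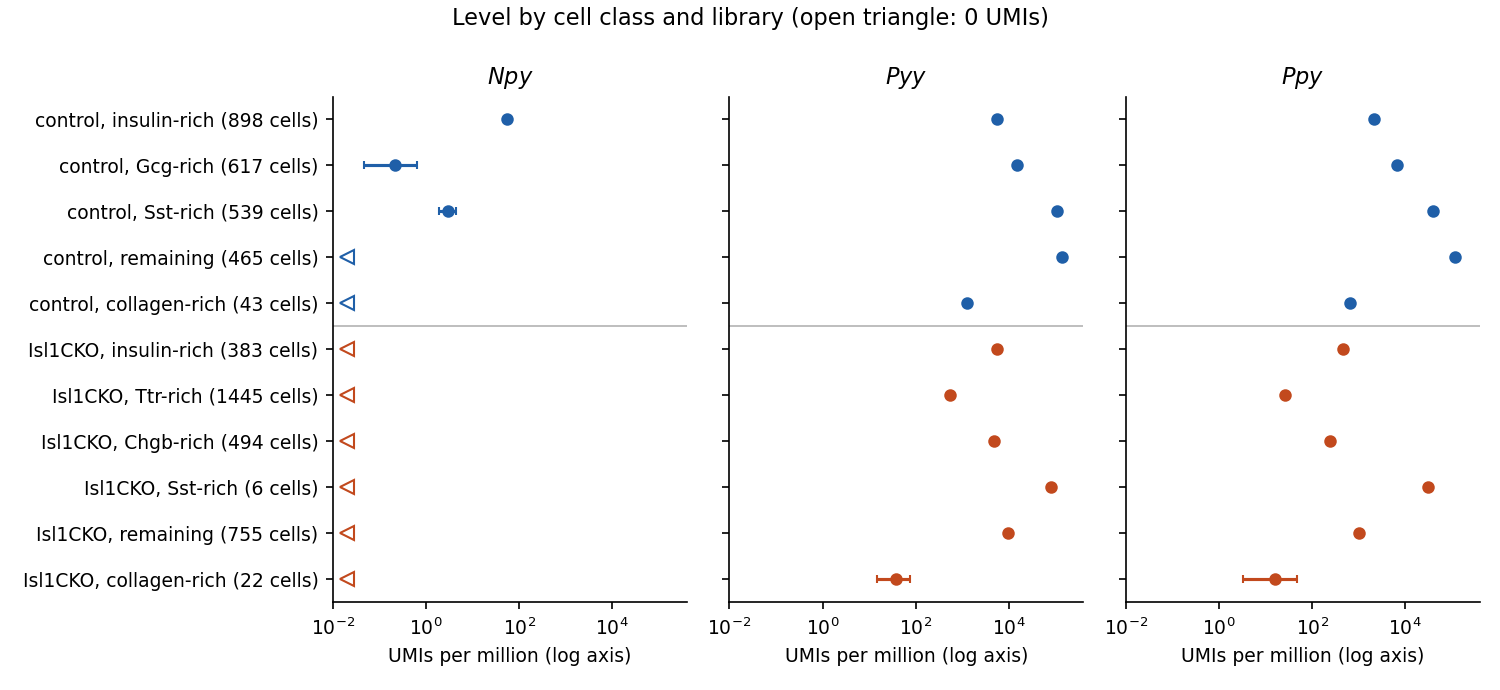
Levels of Npy, Pyy and Ppy in CPM (log axes) by cell class, control in blue above the line and Isl1CKO in red below it, with exact Poisson 95% intervals that are often narrower than the points. Npy points are in control insulin-rich, Gcg-rich and Sst-rich cells, at 56.2, 0.220 and 2.90 CPM, and Isl1CKO rows show the open triangle for 0 UMIs.

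Npy was almost wholly a transcript of control insulin-rich cells. These held 2406 of the 2433 UMIs (98.9%), at 56.2 CPM (54.0 to 58.5). Sst-rich control cells held 24 UMIs (2.90 CPM, 1.86 to 4.31), 20 of them in 1 cell, and Gcg-rich cells held 3 UMIs in 3 cells (0.220 CPM, 0.0454 to 0.643). Remaining control cells and the 43 control cells rich in collagen transcripts had 0. In the 383 Isl1CKO insulin-rich cells Npy had 0 UMIs, 275-fold lower than in control insulin-rich cells against a floor of 3 UMIs. The exact upper limit of this log2 ratio was -7.81. The share of control insulin-rich cells with a UMI was 9.13% (82 of 898, 7.33% to 11.2%), against 0 of 383, which allows a share of up to 0.783%. The control share that held after each cell was thinned to 4000 UMIs was 5.68% (51 cells, 4.26% to 7.40%). The ratio at the floor was then -4.78 on the log2 scale. As a background from the same droplet run, 0.486% of Gcg-rich cells had an Npy UMI, at a median depth of 21125 UMIs per cell against 48340 in insulin-rich cells.

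Within the insulin-rich class Npy sat in a small number of cells. Only 88 control cells had a UMI, and 74 had at least 2 UMIs, here called Npy-positive, of which 71 were insulin-rich (7.91% of the class, 6.23% to 9.87%) and 3 Sst-rich. The 16 cells with at least 50 UMIs held 56.0% of all Npy UMIs, the 34 cells with 10 to 49 held 38.9%, and the highest cell held 190. The 25 cells highest in Npy, 1% of the library, held 72.4% of its UMIs. Npy-positive cells made up 7.98% of control insulin-rich cells with Xist and no Y-linked UMI (15 of 188) and 8.29% of those with Y-linked and no Xist UMI (51 of 615), so they were found in cells of both sexes at like shares.

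**Figure D2:**
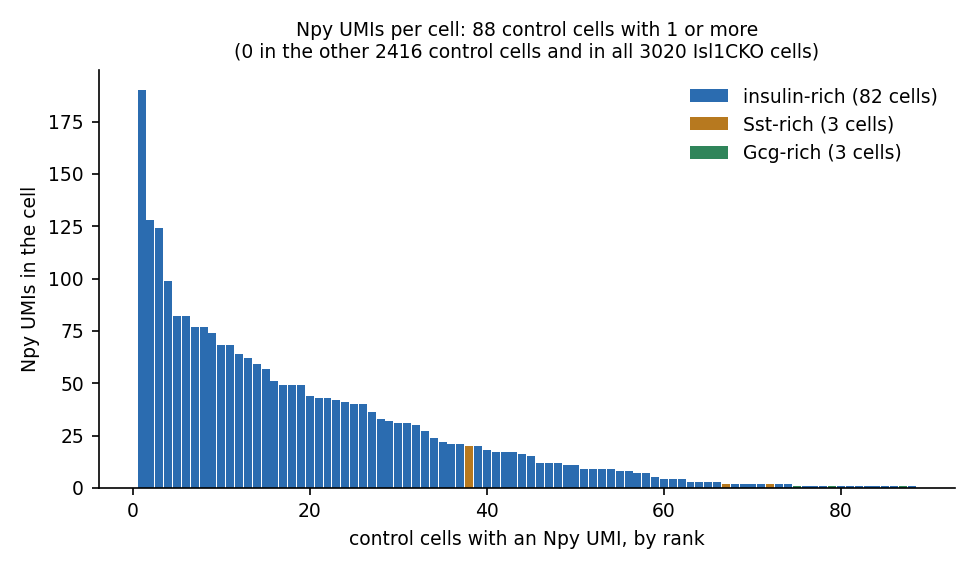
Npy UMIs in each of the 88 control cells with at least 1, in order of their UMI number, with bars coloured by cell class. The highest bar is 190 UMIs, 16 bars reach 50 or more, and 82 of the 88 cells are insulin-rich.

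Npy-positive insulin-rich cells (71) were set beside the 816 insulin-rich control cells with no Npy UMI, as sums within 1 library. Ucn3, urocortin 3, a marker of maturing beta cells, stood at 313 CPM in Npy-positive and 135 CPM in Npy-negative cells. Gcg, the glucagon gene, stood at 638 against 2841 CPM. Pyy stood at 3214 against 5749 CPM and Ppy at 3236 against 2048 CPM. The Ppy sum rests on 3 Ppy-positive cells (4.23% of the 71), which held 92.0% of the 11607 Ppy UMIs, and 3 Pyy-positive cells held 85.8% of the 11527 Pyy UMIs, so no direction is read from either sum. Ins1 differed little, with 223659 against 215861 CPM. Among 8 cell-cycle genes, Mki67 stood at 51.0 against 17.2 CPM and Hmmr at 23.7 against 10.3 CPM, but Cdk1 at 1.95 against 3.55 CPM. Of the 44 control insulin-rich cells with at least 10 UMIs from those 8 genes, a size chosen after the data were seen, 7 were Npy-positive (15.9%, 6.64% to 30.1%), against 64 of the other 854 (7.49%, 5.82% to 9.47%). These shares' intervals overlap.

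Ucn3 was also the gene whose pattern over the 2504 control cells was most like that of Npy, with a Pearson r of 0.34 on log-scaled values among 10265 genes found in at least 5% of cells. Sytl4 (granuphilin, a granule docking protein) followed at 0.29, Trpm5 (a calcium-activated cation channel) at 0.26, and Bace2 (a protease of beta cells) and G6pc2 (the islet glucose-6-phosphatase) at 0.25 each. All 5 values are low, the cells share 1 library, and sparse counts and depth enter each of them. Within the 898 insulin-rich cells alone Ucn3 again ranked first, at 0.31, followed by Lifr and Dlgap3 (0.26 each) and Plagl1 and Sytl4 (0.25 each). Trpm5, Bace2 and G6pc2 were not among the first 5 there. Scaled to non-hormone UMIs over all control cells, Zc3h3 (0.27) took the place of G6pc2.

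Pyy was found across control classes at very different levels. It stood at 110075 CPM (109849 to 110301) in Sst-rich cells, 15223 CPM (15157 to 15289) in Gcg-rich cells and 5472 CPM (5450 to 5495) in insulin-rich cells, and at 137420 CPM (137171 to 137669) in remaining cells. The lowest class was the collagen-rich cells, a cell type that should lack the gene, at 1270 CPM (1163 to 1384). Of their 519 Pyy UMIs 171 were in 1 cell, and the parts of free RNA and of captured cell pairs were not tested. Every 1 of the 539 Sst-rich cells had at least 1% of its UMIs from Pyy, here called Pyy-positive, with a median of 105553 CPM per cell. The same share was 66.0% in remaining cells (307 of 465, 61.5% to 70.3%), 35.2% in Gcg-rich cells (217 of 617, 31.4% to 39.1%), 14.9% in insulin-rich cells (134 of 898, 12.7% to 17.4%) and 0 of 43 in collagen-rich cells, which allows up to 6.98%.

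In the Isl1CKO library Pyy-positive cells numbered 214 (7.09% of 3020 cells, 6.20% to 8.06%), against 1187 (47.4% of 2504, 45.4% to 49.4%) in the control library. They lay mainly in remaining cells (104 cells, 48.6%), insulin-rich cells (57, 26.6%) and Chgb-rich cells (44, 20.6%). Control Pyy-positive cells were 45.4% Sst-rich, 25.9% remaining, 18.3% Gcg-rich and 11.3% insulin-rich. Ttr-rich Isl1CKO cells, the largest class, had a Pyy level of 543 CPM (536 to 549.8) and only 11 positive cells of 1445 (0.761%, 0.381% to 1.36%). Control cells that passed the same Ttr threshold numbered 113, with 11916 CPM of Pyy and 26.5% positive (18.7% to 35.7%). They held 297939 CPM of Gcg, against 2030 CPM in Ttr-rich Isl1CKO cells, so the groups are not like classes. Chgb-rich Isl1CKO cells stood at 4832 CPM (4789 to 4875), with 14393 CPM in those with Xist and no Y-linked UMI and 1823 CPM in those with Y-linked and no Xist UMI. Remaining Isl1CKO cells stood at 9533 CPM (9477 to 9590), with 27039 and 5021 CPM in the same order, while remaining control cells had 133954 and 137709 CPM. The 6 Sst-rich Isl1CKO cells were all Pyy-positive, at 79724 CPM (77656 to 81834), against 110075 CPM (109849 to 110301) in control Sst-rich cells. The median cell held 79309 CPM in these 6 and 105553 CPM in control.

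Insulin-rich cells had nearly the same Pyy level in both libraries, with 5472 CPM in control against 5609 CPM (5571 to 5647) in Isl1CKO cells. The share of Pyy-positive cells was 14.9% in both, 134 of 898 and 57 of 383 (11.5% to 18.8%). The log2 ratio was 0.04, but it was -0.38 relative to the median gene and -0.51 when scaled to non-hormone UMIs, so its direction depends on the scale, and Pyy was not past 2-fold on any of these scales. The low end of the class did differ, since the median cell held 1228 CPM in control against 595 CPM in Isl1CKO cells. Control collagen-rich cells held a median of 860.0 CPM, against 0 in the 22 collagen-rich Isl1CKO cells. The part of free Pyy RNA in the medians was not tested. The ratio also depends on the class threshold. With thresholds doubled, 858 control and 271 Isl1CKO cells remained in the class, Pyy stood at 4749 against 3047 CPM, and the log2 ratio was -0.64, or -0.88 relative to the median gene. It also went with the sex of the cells. In cells with Y-linked and no Xist UMI, Pyy stood at 5477 CPM in control against 3368 CPM in Isl1CKO cells (log2 ratio -0.70, and -1.34 relative to the median gene, which is past 2-fold). In cells with Xist and no Y-linked UMI it stood at 4607 against 7087 CPM (log2 ratio 0.62, and 0.36 relative to the median gene). Because animals were pooled, the sex of the cells and the animals they came from cannot be told apart.

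Ppy had the same order as Pyy over the control classes listed here. Its level was 119350 CPM (119118 to 119583) in remaining cells, 40318 CPM (40181 to 40455) in Sst-rich, 6547 CPM (6504 to 6590) in Gcg-rich, 2124 CPM (2110 to 2138) in insulin-rich and 646 CPM (570.4 to 729) in collagen-rich cells. Control cells past the Ttr threshold left this order, with more Pyy (11916 CPM) but less Ppy (1312 CPM) than insulin-rich cells. Cells with at least 1% of UMIs from Ppy, here called Ppy-positive, were 76.3% of Sst-rich cells (411 of 539), 54.8% of remaining cells (255 of 465), 12.0% of Gcg-rich cells (74 of 617) and 4.57% of insulin-rich cells (41 of 898). Among remaining control cells the 254 positive for both genes held 197835 CPM of Pyy and 184147 CPM of Ppy, with 5118 CPM of Sst and 5679 CPM of Gcg, and 157 negative for both held 1703 and 782 CPM, and 42 of the 43 collagen-rich cells also count among the remaining cells. In the Isl1CKO library the 15 remaining cells positive for both held 88321 CPM of Pyy and 26097 CPM of Ppy, and the 89 positive for Pyy alone held 52299 CPM of Pyy and 1751 CPM of Ppy.

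In the Isl1CKO library 27 cells were Ppy-positive (0.894%, 0.590% to 1.30%), against 774 in control (30.9%, 29.1% to 32.8%). Of these 27, 18 were remaining cells, 4 Sst-rich, 3 insulin-rich and 2 Chgb-rich, and none of the 1445 Ttr-rich cells was Ppy-positive, which allows up to 0.208%. Insulin-rich cells stood at 2124 CPM in control against 468 CPM (457 to 479) in Isl1CKO cells, 4.54-fold lower, with a log2 ratio of -2.18 (-2.22 to -2.15) and -2.60 relative to the median gene, whose own log2 ratio was 0.41. Hormones of other cell types were lower in the same class, with Gcg at 2625 against 6.54 CPM (401-fold) and Sst at 590.0 against 7.97 CPM (74.0-fold). The control Gcg sum rests largely on few cells, since the ninetieth percentile was 742 CPM and 7 cells were also Gcg-rich. The median cell held 294 CPM of Gcg in control against 0 in Isl1CKO cells. Ppy in collagen-rich cells stood at 646 CPM in control against 16.0 CPM (3 UMIs) in Isl1CKO cells. The part of free RNA and of these other transcripts in the Ppy ratio was not tested. Npy and Ppy were thus 2 of 3 members past 2-fold lower in insulin-rich cells, where 4.73% of 10080 genes compared were and 4.97% were past 2-fold higher. The Ppy ratio was -3.60 in cells with Y-linked and no Xist UMI. In cells with Xist and no Y-linked UMI it was -0.67, or -0.93 relative to the median gene, which is not past 2-fold, from 974 CPM in control against 614 CPM in Isl1CKO cells. The 134 Pyy-positive control insulin-rich cells also held 3714 CPM of Sst, against 86.1 CPM in the other 764, and 7 of the 134 were called doublets. Without any called doublet, which took 11 control and 1 Isl1CKO cells from the class, the Ppy ratio was -2.04. The part of captured cell pairs in the Ppy level was not tested beyond this.

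Pyy and Ppy were found together in the same cells. In the control library 760 cells were positive for both (30.4%, 28.6% to 32.2%), 2.07 times the number given by the product of the separate shares. Of Ppy-positive cells 98.2% were Pyy-positive, and 64.0% of Pyy-positive cells were Ppy-positive, so Ppy marked a part of the Pyy-positive cells. In the Isl1CKO library 24 cells were positive for both (0.795%, 0.510% to 1.18%), 12.5 times the number given by the product of the shares (1.91). There 88.9% of Ppy-positive cells were Pyy-positive, but 11.2% of Pyy-positive cells were Ppy-positive. Such a ratio has a lower ceiling where positive cells are common, so the ratios of the libraries are not compared. Npy-positive cells stood apart, with 6 also Pyy-positive and 5 also Ppy-positive in the control library, against 35.1 and 22.9 from the products of the shares. Npy and Ppy overlap within the insulin-rich class was 3 cells against 3.24 from the product, so the low overall overlap of those 2 genes went with their different classes, and Npy and Pyy overlap there was 3 cells against 10.6.

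**Figure D3:**
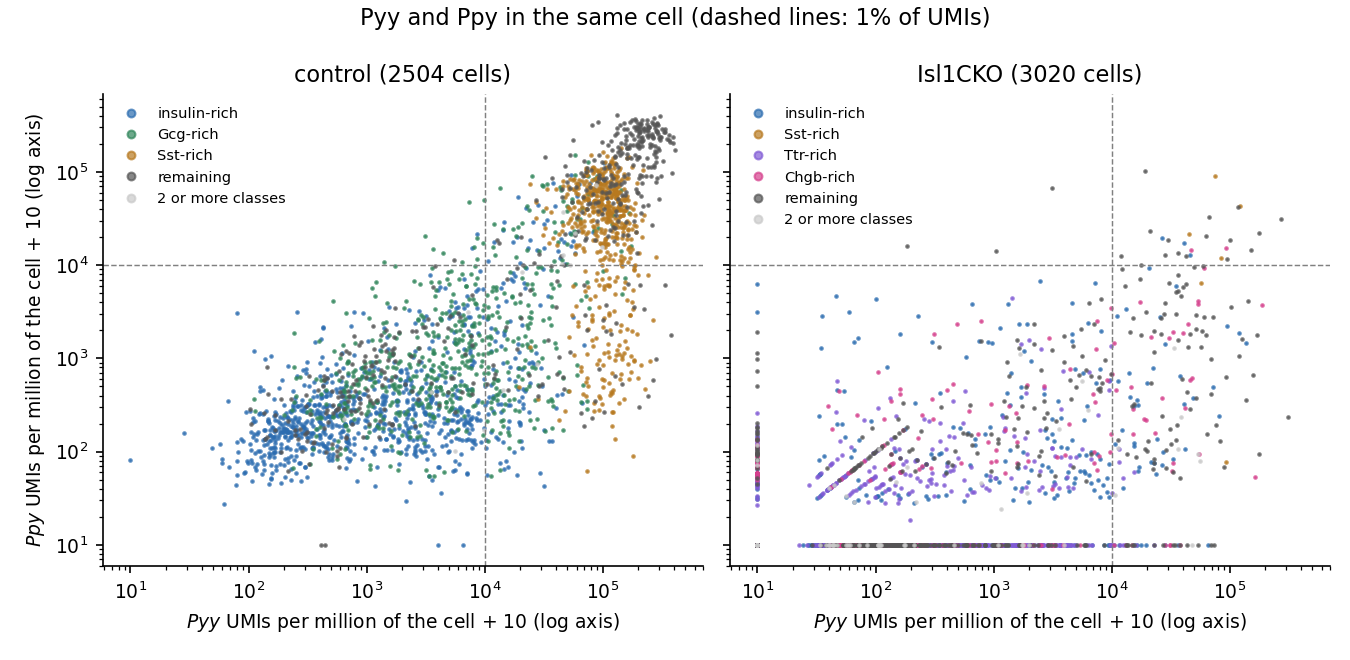
Each point is 1 cell, with Pyy on the horizontal and Ppy on the vertical axis, in CPM of the cell plus 10 on log axes, coloured by class, control at left and Isl1CKO at right. In the control library 760 cells lie beyond both dashed lines at 1% of UMIs, and in the Isl1CKO library 24 do, while 190 Isl1CKO cells are beyond the Pyy line only.

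Across control cells the correlation of log-scaled Pyy and Ppy was r = 0.80 over 2504 cells, given as a description of cells that share 1 library, its depth and its free RNA. It was 0.86 in the 465 remaining cells, 0.56 in both insulin-rich and Gcg-rich cells, and -0.05 in the 539 Sst-rich cells. In Sst-rich cells Pyy varied little around its high level, with the tenth and ninetieth percentiles of cells at 59646 and 162414 CPM, while those of Ppy were 1049 and 86910 CPM. Sst-rich cells without 1% of Ppy (128) were thus as rich in Pyy, at 119137 CPM, as the 411 Ppy-positive ones at 107331 CPM, and Sst was 136781 against 119951 CPM. The 8 cell-cycle genes were all higher in the Ppy-negative Sst-rich cells, such as Cenpf at 110.1 against 30.7 CPM, Birc5 at 48.8 against 12.3 CPM and Mki67 at 59.7 against 25.3 CPM. Of the 17 Sst-rich cells with at least 10 UMIs from those genes 10 were Ppy-positive (58.8%, 32.9% to 81.6%), against 401 of the other 522 (76.8%, 73.0% to 80.4%), so these sums rest on few cells.

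The balance between the neighbouring genes was measured as the Ppy share of Pyy and Ppy UMIs, counted at the 3′ end and not divided by transcript length. It was 37.8% over all control cells and 8.53% over all Isl1CKO cells. In insulin-rich cells, the class both libraries shared, it was 28.0% in control and 7.70% in Isl1CKO cells. Other control classes gave 46.5% in remaining, 30.1% in Gcg-rich and 26.8% in Sst-rich cells, and control cells past the Ttr threshold only 9.92%, while Isl1CKO classes gave 9.73% in remaining, 4.83% in Chgb-rich and 4.58% in Ttr-rich cells. The 6 Sst-rich Isl1CKO cells were an exception, with 27.6%. Control barcodes with 1 to 100 UMIs, which hold free RNA, gave 39.7%, close to the pooled control cells. Among cells with at least 1% of UMIs from the pair, Ppy made up under 10% of it in 74.4% of 227 Isl1CKO cells and in 30.2% of 1258 control cells. The median such cell had 10.9% in control insulin-rich and 0.738% in Isl1CKO insulin-rich cells. It had 2.91% over the 35 such control cells past the Ttr threshold and 0.257% over the 13 Ttr-rich Isl1CKO cells, so low shares were also found in control cells.

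**Figure D4:**
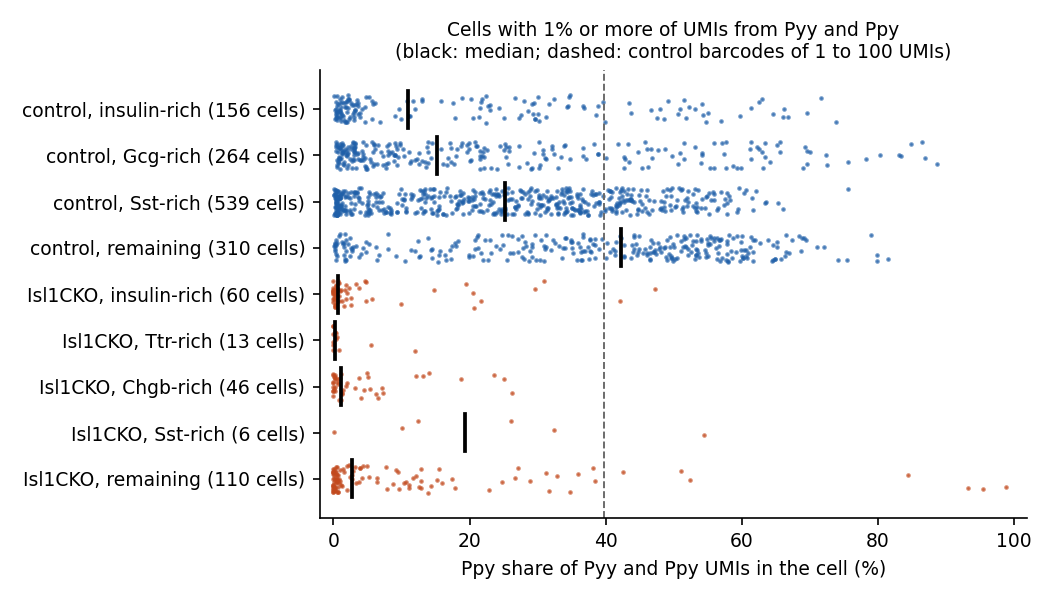
Ppy share (%) of Pyy and Ppy UMIs in each cell with at least 1% of UMIs from the pair, by class, with the class median as a black bar and the share in control barcodes of 1 to 100 UMIs (39.7%) as a dashed line. The 4 plotted control medians run from 10.9% to 42.2% (control cells past the Ttr threshold, median 2.91%, are not drawn apart), and the Isl1CKO medians of insulin-rich, Ttr-rich, Chgb-rich and remaining cells from 0.257% to 2.77%, with Sst-rich cells above them.

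Pyy-positive cells differed from Pyy-negative cells of the same library in their other peptides. Among the 617 control Gcg-rich cells the 217 Pyy-positive ones held 5337 CPM of Sst and 15038 CPM of Ppy, against 143 and 1692 CPM in the other 400. This Sst sum rests on few cells, since 7 of the Pyy-positive ones were also Sst-rich. Over all Gcg-rich control cells the ninetieth percentile of Sst was 355 CPM, and 1 cell held 4143 of the 27709 Sst UMIs. In Isl1CKO cells Iapp, islet amyloid polypeptide, stood at 31683 CPM in the 214 Pyy-positive and 9968 CPM in the 2806 Pyy-negative cells. Gast, gastrin, an antral hormone, stood at 534 against 79.4 CPM, and in remaining cells at 1249 against 63.9 CPM. Other gut and neural peptide genes went the other way, with Sct (secretin) at 22.3 against 366 CPM, Cck (cholecystokinin) at 5.82 against 43.3 CPM and Vgf at 30.1 against 276 CPM. Sst stood at 1863 against 6.95 CPM, with the 6 Sst-rich cells among the Pyy-positive ones. These whole-library sums mix classes. Ttr-rich cells were 11 of the 214 Pyy-positive and 1434 of the 2806 Pyy-negative Isl1CKO cells, and insulin-rich cells were 57 and 326. The part of class make-up in these differences was not tested. In Isl1CKO insulin-rich cells Pyy-positive cells (57) held less Ucn3 than the other 326, at 24.1 against 66.4 CPM, and more Chgb, at 16627 against 8551 CPM. Control insulin-rich cells differed the same way for Ucn3 between Pyy-positive and Pyy-negative cells, at 75.9 against 164 CPM. Cell-cycle genes such as Top2a (32.7 against 0.788 CPM) were also higher in the Isl1CKO Pyy-positive insulin-rich cells, but only 3 of the 383 cells had at least 10 UMIs from the 8 genes, 2 of them Pyy-positive.

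Over control cells the genes most like Pyy were Ppy (r = 0.80), Tspan8 (a tetraspanin, 0.71), Epcam (an epithelial adhesion molecule, 0.67), Sst (0.64) and Rbp4 (retinol-binding protein, 0.64). Those most like Ppy were Pyy (0.80), Tspan8 (0.73), Epcam (0.57), Clu (clusterin, 0.55) and Arg1 (arginase, 0.55). These lists depend on the scale. On non-hormone UMIs Clu (0.60) took the place of Rbp4 for Pyy, and Sst (0.51) that of Epcam for Ppy. Over the 3020 Isl1CKO cells the genes most like Pyy were Ppy (0.58), Iapp (0.41), Igfbp7 (0.37), Fam159b (0.36) and Ppp1r1a (0.34). Only Ppy was on both Pyy lists, which describe cells of different classes.

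The genes that receive, make and cut these peptides were taken as fixed lists. Of the 5 receptor genes, Npy2r, Npy4r and Npy6r had 0 UMIs in both libraries, which is not detectable at this depth, and Npy5r had 1 control and 2 Isl1CKO UMIs. Npy1r, the NPY and PYY receptor, had 60 UMIs (0.827 CPM) in control and 163 UMIs (2.09 CPM) in Isl1CKO cells, within 2-fold of the median gene. Of the 60 control UMIs 49 were in Gcg-rich cells (3.59 CPM) and 2 in insulin-rich cells, and of the 163 Isl1CKO UMIs 121 were in Ttr-rich cells (2.77 CPM) and 0 in insulin-rich cells. The receptor was thus counted mainly in other classes than the cells that held Npy.

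All 6 processing genes were measured over all cells, and 1 was past 2-fold lower and 1 past 2-fold higher than the median gene (background 6.82% and 5.21%), with a median relative log2 ratio of 0.35 for the list. Pcsk1, a prohormone convertase, stood at 147 CPM in control against 90.5 CPM in Isl1CKO cells (relative log2 ratio -1.28). Pam, which amidates the peptide end that these hormones need, stood at 368 against 1144 CPM (1.06). Pcsk2, Cpe, Pcsk1n and Scg5 were within 2-fold. In insulin-rich cells all 6 were within 2-fold, with Pcsk1 at 214 against 277 CPM and Pam at 166 against 403 CPM, so the pool-wide Pcsk1 difference was not seen inside this class. Of the 4 cleavage genes Mme (54 and 11 UMIs) and Fap (55 and 30 UMIs) were past 2-fold lower. Dpp4, which trims NPY and PYY, stood at 46.5 against 35.1 CPM (-0.99), just inside 2-fold, and at 25.6 against 36.1 CPM in insulin-rich cells.

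**Figure D5:**
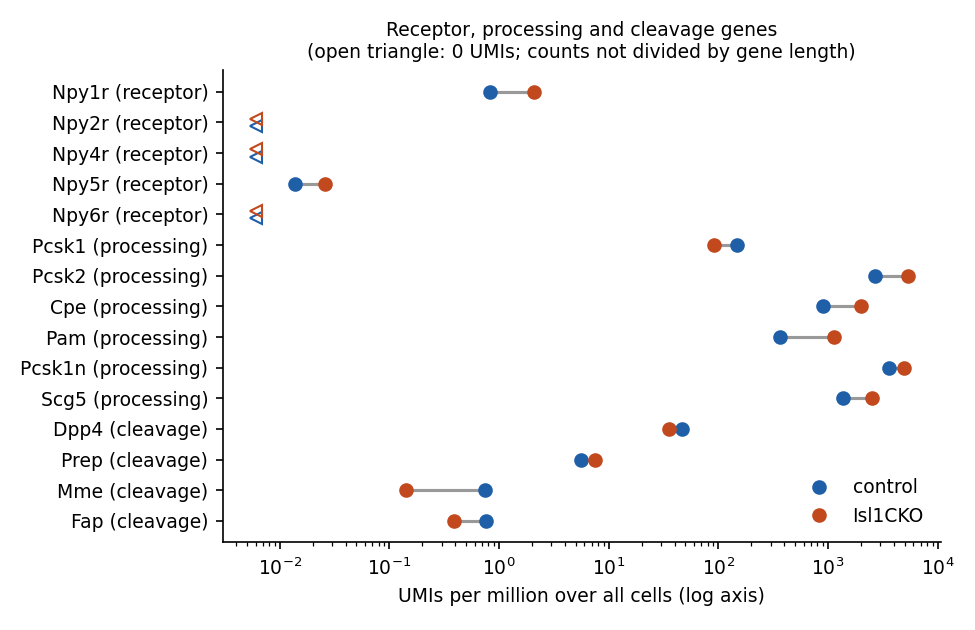
Levels over all cells, in CPM on a log axis, of the 5 receptor, 6 processing and 4 cleavage genes in control (blue) and Isl1CKO (red) cells, with open triangles for 0 UMIs. Npy2r, Npy4r and Npy6r are at 0 in both, Pam is at 368 and 1144 CPM, and Pcsk1 at 147 and 90.5 CPM.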

How the data were processed

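The authors deposited raw UMI counts per gene and barcode, whole numbers with no normalization, per the file headers. STARsolo, STAR 2.7.3a, Seurat 4.3.0.1 and GRCm38.p6 are named in the submitters' processing notes, and the gene annotation behind the counts is not stated there. The control matrix listed 6794880 barcodes, with empty droplets, and the Isl1CKO matrix 3020. Control barcodes with at least 6825 UMIs, 1/10 of the 99th percentile of the top 3000, were taken as cells, and all Isl1CKO barcodes were kept. Doublets were kept. Scrublet (scanpy 1.11.5) called only 0.879% of control and 0.265% of Isl1CKO cells, below the expected rates of 2.00% and 2.42%, so doublets may remain.

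UMIs were summed over cells and scaled to the total (CPM). Sums have exact Poisson, ratios exact conditional binomial and shares Clopper-Pearson 95% intervals, and a sum of 0 was set against a floor of 3 UMIs, or 3 cells for a share of cells. A gene was compared with the median gene, and counted at 2-fold, where its higher-CPM library gave it 50 UMIs or more. Fixed named genes were the members, the receptor, processing, cleavage and companion lists, and the 5 genes most like each member. The members and lists were chosen with earlier results of these data known. The ratio code was tested on simulated data. Gene positions are from GENCODE M21, which holds 37902 of the 46983 identifiers with their version. Tools were scipy 1.17.1, numpy 2.4.6, pandas 2.3.3 and matplotlib 3.10.9 under Python 3.11.15. Alternatives varied the barcode rule, mitochondrial filter, doublets, scaling, depth, sex of cells, class thresholds and positive thresholds.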

Additional observations from a re-analysis of the deposited data

Results flagged for a closer look

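Control barcodes that were not taken as cells also held these transcripts. In the 1864285 barcodes with 1 to 100 UMIs, Npy stood at 18.3 CPM (14.8 to 22.3), Pyy at 45453 CPM and Ppy at 29951 CPM. In the 872 control barcodes with at least 1000 UMIs below the cell threshold, Npy stood at 0.910 CPM (2 UMIs), Pyy at 13469 CPM and Ppy at 10611 CPM. The Isl1CKO matrix holds no such barcodes here, so its free RNA was not measured in the same way.

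The Pyy ratio in insulin-rich cells had opposite directions in cells of different sex, with a log2 ratio, Isl1CKO to control, of -0.70 in cells with Y-linked and no Xist UMI and 0.62 in cells with Xist and no Y-linked UMI. In the Isl1CKO library 10 of 130 such male cells (7.69%) and 45 of 221 such female cells (20.4%) were Pyy-positive, against 14.5% and 14.9% in the control library. The difference was not tested, since each genotype is 1 pooled library.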

How the results depend on the processing

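No paired analysis was possible because each genotype has 1 library. Values below are log2 ratios, Isl1CKO to control. With control barcodes from 1000 UMIs, Pyy and Ppy over all cells gave -3.34 and -6.05. Without doublets, Pyy and Ppy in insulin-rich cells gave 0.10 and -2.04. Scaled to non-hormone UMIs, Pyy and Ppy gave -4.28 and -6.99 over all cells and -0.51 and -2.73 in insulin-rich cells. As the mean of per-cell CPM, Pyy and Ppy gave -3.73 and -6.09 over all cells and Pyy 0.08 in insulin-rich cells, and Npy gave no value because it is 0 in Isl1CKO cells. Thinned to 4000 UMIs, Npy, Pyy and Ppy gave -6.30, -3.74 and -6.11 over all cells, and Npy and Pyy -4.78 and 0.09 in insulin-rich cells, where fewer UMIs raise the floor. In cells with Y-linked and no Xist UMI they gave -8.92, -4.20 and -6.67 over all cells and -6.48, -0.70 and -3.60 in insulin-rich cells. In cells with Xist and no Y-linked UMI they gave -8.17, -2.40 and -5.32, and -7.12, 0.62 and -0.67. With class thresholds set to 0.5 times, Pyy and Ppy in insulin-rich cells gave 0.06 and -2.48, and with thresholds doubled Npy, Pyy and Ppy gave -7.72, -0.64 and -1.76. In cells of 1 class only, Pyy and Ppy gave -0.03 and -2.12. Beyond these construction effects the cause was not tested. The barcode rule from the lowest Isl1CKO barcode and the mitochondrial filter moved none of these ratios beyond counting error.

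Positive shares depend on the threshold. From 0.1% of UMIs, 75.8% of control cells were positive for Pyy, 48.9% for Ppy and 47.7% for both, against 19.3%, 4.83% and 4.01% of Isl1CKO cells. From 5%, they were 33.4%, 17.0% and 16.1%, against 1.89%, 0.0993% and 0.0331%. Thinned, 1.48% of control cells were Npy-positive. Without centring, 508 genes were past 2-fold lower and 2444 higher, in place of 983 and 752, and scaled to non-hormone UMIs 1588 and 468. Of 216 alternatives for single class levels, 109 stayed within counting error and 107 moved beyond it. A single level has no direction, so a reversal could not be counted for these. With 1 pooled library per genotype, animal variation is not measured, and counting intervals are narrower than any such spread would make them.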
